A study of Homo sapiens with 12 samples.

Results

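The 10 genes examined here move iron into the hepatocyte, store it, export it and sense it: TFRC, STEAP3, SLC11A2, SLC39A14, FTH1, FTL, NCOA4, SLC40A1, ACO1 and IREB2. They were chosen by symbol, with earlier results of these data known. The shares and medians of all genes set beside them are thus description and not a test. All 10 were found among the 20293 genes listed in at least 1 of 2 human hepatoma lines (17640 in HepG2, 18434 in Huh7, 15781 in both). RNA was sequenced from wildtype HepG2 and Huh7 cells transfected with UBL5 siRNA or with a nontarget control siRNA (Ctrl-siRNA), and every group received the transfection reagent Lipofectamine RNAiMAX. The 12 libraries are 3 for each siRNA in each line, at 52 h by the labels, a time that the sources used here do not give alike. UBL5 is a small ubiquitin-like protein that binds a component of the spliceosome, and its knockdown (KD) asks which transcripts depend on it. The methods name 1 UBL5 siRNA. Whether the 3 libraries of a group are separate transfections is not given in the sources used here, so the spread behind each p-value may be technical.

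Iron bound to transferrin enters cells through transferrin receptor 1, the product of TFRC, and is reduced in the endosome by ferrireductases such as STEAP3 before SLC11A2 (DMT1) carries it into the cytosol. Hepatocytes also take up iron that is not bound to transferrin, through SLC39A14 (ZIP14). Excess iron is held in ferritin, a shell of heavy (FTH1) and light (FTL) chains that NCOA4 delivers to lysosomes for turnover, and leaves the cell through ferroportin, the product of SLC40A1. The iron regulatory proteins IRP1 (ACO1) and IRP2 (IREB2) bind a stem-loop, the iron-responsive element, when iron is low. In a 5′ UTR this binding blocks translation, and in the 3′ UTR of TFRC it stabilizes the mRNA.

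The elements that link these genes were located in the reference genome, since they mark which transcripts the iron regulatory proteins can bind. The search took a cytosine, a stem strand of 5 bases, the loop CAGTGN, and a second stem strand of 5 bases that pairs with the first (G with T allowed), on the transcript strand of annotated UTRs (GENCODE 44, GRCh38). Fully paired matches were found in the 5′ UTR of FTH1, FTL and SLC40A1 and at 4 places in the 3′ UTR of TFRC, and a match with 1 unpaired stem position in the 3′ UTR of SLC11A2. Each is printed 5′ to 3′ as 30 bases of genome sequence with the loop of 6 bases in capitals.
FTH1 5′ UTR, chr11:61967573-61967602, minus strand: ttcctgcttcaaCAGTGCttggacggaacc
FTL 5′ UTR, chr19:48965335-48965364, plus strand: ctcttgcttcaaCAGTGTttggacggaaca
SLC40A1 5′ UTR, chr2:189580660-189580689, minus strand: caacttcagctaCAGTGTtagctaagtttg
TFRC 3′ UTR, chr3:196050978-196051007, minus strand: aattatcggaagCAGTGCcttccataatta
TFRC 3′ UTR, chr3:196050574-196050603, minus strand: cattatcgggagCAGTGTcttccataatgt
TFRC 3′ UTR, chr3:196050509-196050538, minus strand: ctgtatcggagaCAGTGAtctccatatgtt
TFRC 3′ UTR, chr3:196050462-196050491, minus strand: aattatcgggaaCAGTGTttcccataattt
SLC11A2 3′ UTR, chr12:50988268-50988297, minus strand: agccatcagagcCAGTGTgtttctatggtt

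A fully paired match was present in 19 of 19441 annotated 5′ UTRs (0.098%) and 122 of 19550 3′ UTRs (0.624%) of canonical coding transcripts, and a match with at most 1 unpaired position in 0.535% and 4.307% of them. The element is not in every isoform: it lay in 9 of 10 FTH1 transcripts with a 5′ UTR, 1 of 5 of SLC40A1, 13 of 16 TFRC transcripts with a 3′ UTR, and 6 of 16 of SLC11A2. Counts per gene do not separate these isoforms. The 3′ UTRs of ACO1 and IREB2 each held a match with 1 unpaired position. No match was found in either UTR of STEAP3, NCOA4 or SLC39A14, which says only that these letters are not in the annotated windows.

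UBL5 KD was checked first. UBL5 had 6.88, 4.31 and 2.80 CPM (counts per 1000000 counts of the TMM-scaled library) with UBL5 siRNA in HepG2, against 60.4, 55.5 and 58.7 with Ctrl-siRNA, and 5.80 to 6.67 in Huh7, against 67.1 to 70.8, so every library matched its label. Total counts ran from 19.98 to 29.74 M in HepG2 and from 19.47 to 27.16 M in Huh7. HepG2 Ctrl-siRNA replicate 3 stood apart, with 1773 listed genes at 0, where the other HepG2 libraries had 159 to 233. The share of counts from mitochondrially encoded genes was 2.753 to 3.607% with UBL5 siRNA in HepG2, against 1.906 to 2.355% with Ctrl-siRNA, and 2.664 to 3.72% in Huh7, against 2.463 to 3.298%. Its part in the results was not tested. All 10 hepatocyte markers were listed in both lines. Summed, they reached 53220 to 63381 CPM with UBL5 siRNA in HepG2, against 53595 to 58960, and 33529 to 34312 CPM in Huh7, against 31690 to 33285. Of 7 leukocyte and macrophage markers, 2 were listed in HepG2 and 1 in Huh7, with PTPRC in neither, and their sum was 4.72 to 7.45 CPM with UBL5 siRNA in HepG2, against 0.167 to 0.997, and 4.34 to 5.38 CPM in Huh7, against 1.49 to 1.75. CD14 made up nearly all of the sum with UBL5 siRNA in HepG2 (6.29 ± 1.4 CPM, against 0.23 ± 0.0892 with Ctrl-siRNA, SD, n = 3 each), and was the listed marker in Huh7. Of 5 endothelial markers, 2 were listed in HepG2 and 1 in Huh7, with sums of 2.91 to 6.17 CPM with UBL5 siRNA in HepG2, against 3.64 to 6.45, and 0.0493 to 0.65 CPM in Huh7, against 0.0501 to 0.668. All 6 fibroblast markers were listed, with sums of 10.3 to 26.1 CPM with UBL5 siRNA in HepG2, against 7.81 to 14.0, and at most 30.9 CPM in Huh7, against 31.6 to 35.3. Single endothelial and fibroblast markers passed the test, namely CDH5 (27, 78 and 48 counts with UBL5 siRNA, against 2, 3 and 0 with Ctrl-siRNA, edgeR adjusted p = 0.00233), COL1A1 (log2 1.81, adjusted p = 0.00266) and PECAM1 (-1.01, adjusted p = 0.0391) in HepG2. In Huh7 they were COL1A1 (1.17, adjusted p = 0.000159), PDGFRB (0.79, adjusted p = 0.00102) and LUM (-1.54, adjusted p = 2.28e-08). CD14 also passed in HepG2 (4.72, adjusted p = 0.000117) and Huh7 (1.51, adjusted p = 6.11e-06). Single hepatocyte markers passed in both directions. APOA1 (log2 0.53 and 0.83), FGA (0.55 and 0.58) and FGB (0.46 and 0.61) were higher in HepG2 and Huh7, and ALB in HepG2 (0.24). TTR (-0.53) and APOB (-0.19) were lower in Huh7. APOA2, SERPINA1, TF and AFP passed in neither line. The part of these markers in the results was not tested. Of 5 erythroid markers, HBA1 alone was listed, in HepG2, at under 0.4 CPM in every library.

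Across the 10 iron genes, the transcripts of the transferrin receptor, the endosomal reductase STEAP3, the ferritin receptor NCOA4 and IRP1 were higher after UBL5 KD in both lines, and those of ferritin light chain and SLC11A2 moved in opposite directions. In HepG2, 6 of 10 were higher (ACO1, FTL, NCOA4, SLC11A2, STEAP3 and TFRC) and 0 lower in the quasi-likelihood test of edgeR at an adjusted p under 0.05, where 36.7% of all 15755 genes tested were called (16.5% higher and 20.1% lower). DESeq2 also called 0 lower in HepG2, and at an unadjusted p under 0.05 edgeR gave 1 (SLC39A14, whose calls under other settings are given with its values). In Huh7, 6 were higher (ACO1, IREB2, NCOA4, SLC39A14, STEAP3 and TFRC) and 3 lower (FTL, SLC11A2 and SLC40A1), where 71.3% of 16965 were called (34.9% higher and 36.4% lower). The median log2 fold change of the 10 was 0.32 in HepG2 and 0.15 in Huh7, against 0.0107 and -0.00835 over all genes. These shares and medians describe genes chosen with earlier results of these data known, and no test of the set was run. FTH1 was called in neither line. The 2 groups of libraries did not overlap for 8 of the 10 in HepG2, where this held for 50.0% of all listed genes, and for 9 in Huh7, where it held for 71.9%. With the effects taken from a fit over all 12 libraries, 5 rather than 9 were called in Huh7, and the calls of SLC11A2, SLC40A1, NCOA4 and IREB2 were lost. That fit also called fewer of all genes in Huh7, 8530 of 15668, against 12098 of 16965 in the fit within the line.

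**Figure D1:**
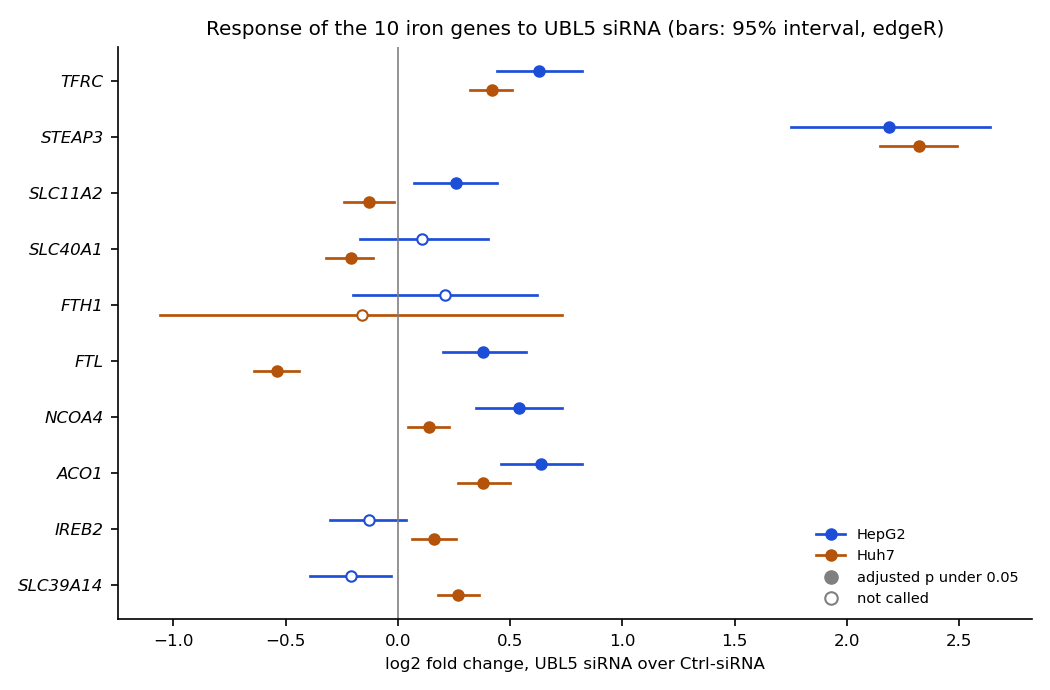
Log2 fold change of the 10 iron genes, UBL5 siRNA over Ctrl-siRNA, in HepG2 (blue, upper mark of each row) and Huh7 (orange, lower mark), with 95% intervals from edgeR (3 libraries against 3). Filled marks have an adjusted p under 0.05. STEAP3 lies furthest from 0 in both lines (2.19 and 2.32), and FTL lies on opposite sides (0.38 and -0.54).

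Among the genes of uptake, STEAP3 had the largest change. STEAP3 (ENSG00000115107, chromosome 2 from 119223831 to 119265652, plus strand, 6 exons) encodes the endosomal ferrireductase of the transferrin cycle. It had 54.9, 49.9 and 38.4 CPM with UBL5 siRNA in HepG2, against 11.2, 12.2 and 7.95 CPM with Ctrl-siRNA. In Huh7 it had 55.8, 53.1 and 47.9 CPM with UBL5 siRNA, against 10.6, 10.6 and 10.2 CPM with Ctrl-siRNA. Every UBL5-siRNA library stood at least 3 times above every Ctrl-siRNA library of its line. STEAP3 rose 4.58-fold in HepG2 (log2 2.19, SE 0.196, adjusted p = 0.000155) and 5.0-fold in Huh7 (log2 2.32, SE 0.0773, adjusted p = 1.04e-09). An antisense gene, STEAP3-AS1, shares part of its exon bases, and the strand setting of the counting is not given in the sources used here.

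TFRC (ENSG00000072274, chromosome 3 from 196012511 to 196082153, minus strand, 19 exons), whose product binds transferrin at the cell surface, was abundant in all groups and higher after KD. It had 1041, 1050 and 1210 CPM with UBL5 siRNA in HepG2, against 675, 702 and 757 CPM with Ctrl-siRNA. Huh7 cells had 1478, 1491 and 1507 CPM with UBL5 siRNA, against 1119, 1152 and 1085 CPM with Ctrl-siRNA. The groups did not overlap in either line. TFRC rose 1.55-fold in HepG2 (log2 0.63, SE 0.0851, adjusted p = 0.000773) and 1.33-fold in Huh7 (log2 0.42, SE 0.0432, adjusted p = 4.47e-06), and both calls held under all 13 alternatives run.

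SLC11A2 (ENSG00000110911, chromosome 12 from 50979401 to 51028566, minus strand), the endosomal exporter of ferrous iron, moved little and in opposite directions. It had 146, 130 and 132 CPM with UBL5 siRNA in HepG2, against 112, 114 and 115 CPM with Ctrl-siRNA, a 1.2-fold rise (log2 0.26, SE 0.0819, adjusted p = 0.0364). In Huh7 it had 102, 91.7 and 94.9 CPM with UBL5 siRNA, against 106, 104 and 106 CPM with Ctrl-siRNA, and fell by 0.13 on the log2 scale (SE 0.0512, adjusted p = 0.0411). Both calls stood near the threshold. The HepG2 call was lost without replicate 1 or 2 of Ctrl-siRNA (adjusted p = 0.109 and 0.101) and without replicate 1 or 2 of UBL5 siRNA (0.105 and 0.0503) and with library totals (0.0785), and the Huh7 call was lost without any library but UBL5-siRNA replicate 1 (up to 0.247), with DESeq2 (0.117), with its size factors (0.0622), with no filter (0.0687) and in the fit over 12 libraries (0.0649).

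SLC39A14 (ENSG00000104635, chromosome 8 from 22367278 to 22434129, plus strand), the importer of iron not bound to transferrin, was higher after KD in Huh7. It had 970, 920 and 949 CPM with UBL5 siRNA in Huh7, against 783, 788 and 787 CPM with Ctrl-siRNA, a 1.2-fold rise (log2 0.27, SE 0.0418, adjusted p = 0.000126). In HepG2 it had 927, 936 and 961 CPM with UBL5 siRNA, against 989, 1094 and 1179 CPM with Ctrl-siRNA. These HepG2 groups did not overlap, and the log2 difference of -0.21 (SE 0.0793, 95% interval -0.39 to -0.028) had an adjusted p of 0.0701. It passed the test without HepG2 Ctrl-siRNA replicate 1 (adjusted p = 0.0327), with library totals (log2 -0.26, adjusted p = 0.0243) and in the fit over 12 libraries (log2 -0.2, adjusted p = 0.0206).

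**Figure D2:**
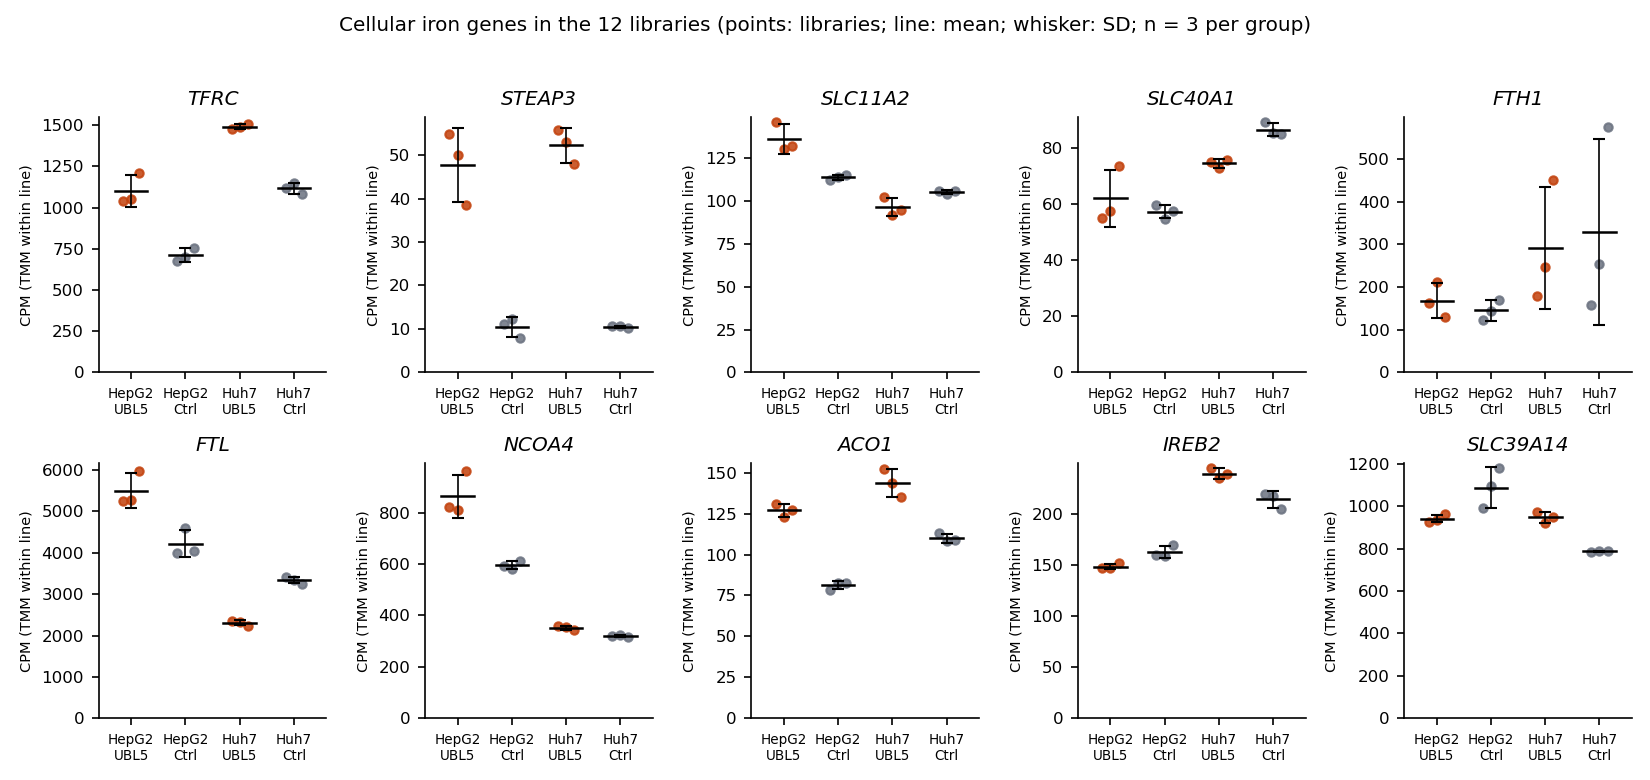
CPM of the 10 iron genes in the 12 libraries, scaled by TMM within each line, with UBL5-siRNA libraries in orange and Ctrl-siRNA libraries in grey; lines are means, whiskers SD (n = 3 per group), and each axis starts at 0. FTL is the most abundant, STEAP3 has the largest fold difference between the groups, and the FTH1 libraries spread widely in Huh7 (158 to 575 CPM with Ctrl-siRNA).

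FTL, the light chain of ferritin, moved in opposite directions in the lines. FTL (ENSG00000087086, chromosome 19 from 48965309 to 48966879, plus strand, 4 exons) had 5256, 5267 and 5977 CPM with UBL5 siRNA in HepG2, against 3999, 4590 and 4052 CPM with Ctrl-siRNA. In Huh7 the values were 2339, 2338 and 2233 CPM with UBL5 siRNA, against 3422, 3346 and 3254 CPM with Ctrl-siRNA. The groups were apart in both lines, with UBL5-siRNA libraries on top in HepG2 and below in Huh7. FTL rose 1.31-fold in HepG2 (log2 0.38, SE 0.0796, adjusted p = 0.00581), and in Huh7 it fell by 31.1% (log2 -0.54, SE 0.0452, adjusted p = 7.8e-07).

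FTL and FTH1 have processed pseudogenes whose sequences resemble them, so the division of reads among the copies is uncertain. FTLP3 had 319 ± 9.25 CPM with UBL5 siRNA in HepG2 and 255 ± 25.5 CPM with Ctrl-siRNA (SD, n = 3 each), and 142 ± 6.24 and 201 ± 11.4 CPM in Huh7. Its log2 fold change was 0.32 in HepG2 (adjusted p = 0.0209) and -0.51 in Huh7 (adjusted p = 5.23e-06), and that of FTLP2 was 0.65 (adjusted p = 0.00156) and -0.51 (adjusted p = 0.000107). Both FTL pseudogenes thus moved in the direction of FTL in each line. The listed FTL pseudogenes summed to 7.26 to 8.96% of the FTL value over the 12 libraries. With their counts added to FTL, its log2 fold change was 0.39 in HepG2 (adjusted p = 0.00455) and -0.53 in Huh7 (adjusted p = 9.12e-07). At so small a share the addition could change the FTL value little. It also does not bring back any reads that the counting left out.

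FTH1 (ENSG00000167996, chromosome 11 from 61959718 to 61967634, minus strand), the ferroxidase chain of ferritin, gave no call in either line. It had 163, 211 and 130 CPM with UBL5 siRNA in HepG2, against 122, 145 and 170 CPM with Ctrl-siRNA. In Huh7 it had 178, 247 and 452 CPM with UBL5 siRNA, against 158, 253 and 575 CPM with Ctrl-siRNA. In Huh7 the values rose with the replicate number in both groups, and the groups overlapped in both lines. The log2 difference was 0.21 in HepG2 (95% interval -0.2 to 0.62, adjusted p = 0.393) and -0.16 in Huh7 (95% interval -1.06 to 0.73, adjusted p = 0.731). In Huh7 its sign turned without Ctrl-siRNA replicate 3 (0.51, adjusted p = 0.14) or UBL5-siRNA replicate 1 (0.1, adjusted p = 0.841). With the replicate number as a block in the edgeR fit, the Huh7 difference was -0.081 (adjusted p = 0.266), although the numbers were not read as pairs. FTH1 shares 63.2% of its exon bases with BEST1, itself at or under 0.457 CPM on average in each group. The listed FTH1 pseudogenes summed to 0.74 to 5.26% of the FTH1 value over the 12 libraries. With their counts added to FTH1, the log2 difference was 0.19 in HepG2 (adjusted p = 0.442) and -0.17 in Huh7 (adjusted p = 0.722). This does not bring back any reads that the counting left out.

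**Figure D3:**
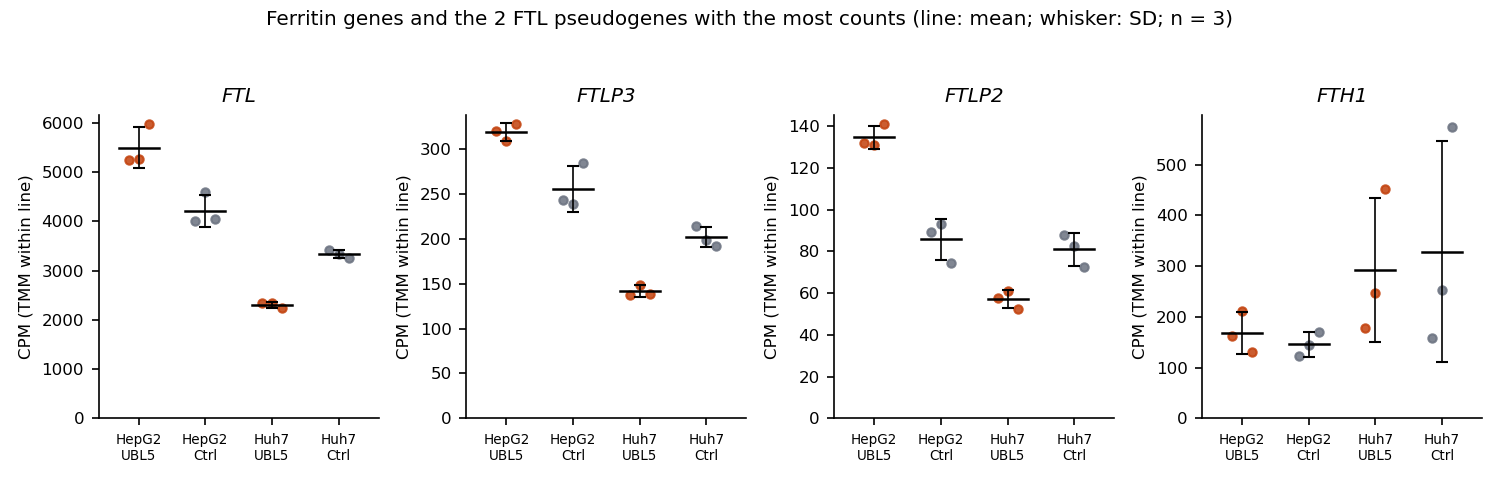
CPM of FTL, its 2 pseudogenes with the most counts (FTLP3 and FTLP2) and FTH1 in the 12 libraries, scaled by TMM within each line; lines are means and whiskers SD (n = 3 per group). FTL, FTLP3 and FTLP2 are higher with UBL5 siRNA in HepG2 and lower in Huh7, and FTH1 overlaps between the groups in both lines.

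NCOA4 (ENSG00000266412, chromosome 10 from 46005088 to 46030623, minus strand), the receptor that carries ferritin to lysosomes, was higher in both lines. It had 822, 810 and 960 CPM with UBL5 siRNA in HepG2, against 594, 580 and 611 CPM with Ctrl-siRNA, a 1.45-fold rise (log2 0.54, SE 0.084, adjusted p = 0.00151). Huh7 libraries had 358, 354 and 342 CPM with UBL5 siRNA, against 319, 323 and 317 CPM with Ctrl-siRNA, a 1.1-fold rise (log2 0.14, SE 0.0415, adjusted p = 0.0114). The groups did not overlap in either line. The Huh7 call was lost when libraries were scaled by their totals (log2 0.055, adjusted p = 0.259) and in the fit over 12 libraries (log2 0.11, adjusted p = 0.186).

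Within each library the counts of TFRC were also set against those of FTL, which needs no scaling between libraries. TFRC had 63.2, 63.8 and 67.5 counts per 100 FTL counts with UBL5 siRNA in Huh7, against 32.7, 34.4 and 33.3 with Ctrl-siRNA. In HepG2 it had 19.8, 19.9 and 20.2 per 100 with UBL5 siRNA, against 16.9, 15.3 and 18.7 with Ctrl-siRNA. The 2 groups were apart in both lines, far in Huh7 and narrowly in HepG2.

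**Figure D4:**
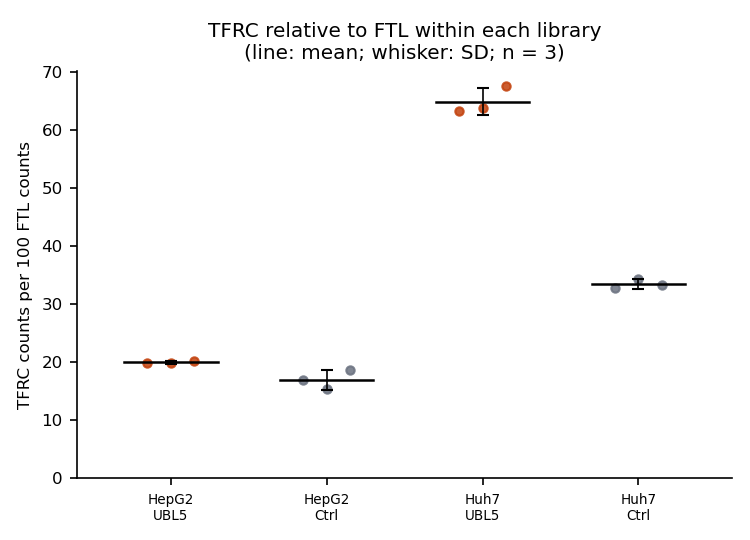
TFRC counts per 100 FTL counts in each of the 12 libraries, with means (lines) and SD (whiskers, n = 3 per group). The Huh7 libraries average 64.8 with UBL5 siRNA and 33.5 with Ctrl-siRNA, and the HepG2 libraries lie between 19.8 and 20.2 with UBL5 siRNA and between 15.3 and 18.7 with Ctrl-siRNA.

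SLC40A1 (ENSG00000138449, chromosome 2 from 189560590 to 189583758, minus strand, 8 exons) encodes ferroportin, the exporter of iron. It had 75.2, 72.8 and 75.9 CPM with UBL5 siRNA in Huh7, against 89.2, 85.5 and 84.9 CPM with Ctrl-siRNA, and fell by 0.21 on the log2 scale (SE 0.048, adjusted p = 0.00182). This call was lost in the fit over 12 libraries (log2 -0.24, adjusted p = 0.0561). In HepG2 it had 55.0, 57.5 and 73.8 CPM with UBL5 siRNA, against 59.7, 54.8 and 57.7 CPM with Ctrl-siRNA. There the groups overlapped and 1 UBL5-siRNA library stood above the rest, with a log2 difference of 0.11 (95% interval -0.17 to 0.4, adjusted p = 0.519). Without that library, UBL5-siRNA replicate 3, it was near 0 (log2 -0.005, adjusted p = 0.978). HAMP encodes hepcidin, the hormone that binds ferroportin and leads to its degradation. HAMP had 114, 156 and 173 CPM with UBL5 siRNA in HepG2, against 4.56, 6.82 and 6.85 CPM with Ctrl-siRNA (log2 4.6, adjusted p = 2.31e-05). In Huh7 it had 2.22, 1.99 and 2.92 CPM, against 0.355, 0.401 and 0.251 CPM (log2 2.79, adjusted p = 3.31e-06). These Huh7 values rest on few reads, 45, 40 and 63 counts with UBL5 siRNA, against 10, 9 and 5 with Ctrl-siRNA.

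Of the transcripts of the iron regulatory proteins, that of IRP1 was higher in both lines. ACO1 (ENSG00000122729, chromosome 9 from 32384603 to 32454769, plus strand, 21 exons), whose product is a cytosolic aconitase when it holds an iron-sulfur cluster and IRP1 when it does not, had 131, 123 and 127 CPM with UBL5 siRNA in HepG2, against 78.6, 82.7 and 82.7 CPM with Ctrl-siRNA. In Huh7 it had 152, 144 and 135 CPM with UBL5 siRNA, against 113, 108 and 109 CPM with Ctrl-siRNA. The groups did not overlap in either line. ACO1 rose 1.56-fold in HepG2 (log2 0.64, SE 0.0788, adjusted p = 0.000502) and 1.3-fold in Huh7 (log2 0.38, SE 0.0524, adjusted p = 4.59e-05).

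IREB2 (ENSG00000136381, chromosome 15 from 78437431 to 78501453, plus strand, 22 exons), which encodes IRP2, had 245, 235 and 239 CPM with UBL5 siRNA in Huh7, against 220, 218 and 205 CPM with Ctrl-siRNA. In HepG2 it had 147, 147 and 152 CPM with UBL5 siRNA, against 160, 159 and 170 CPM with Ctrl-siRNA. The groups were apart in both lines, with UBL5-siRNA libraries above in Huh7 and below in HepG2. IREB2 rose 1.12-fold in Huh7 (log2 0.16, SE 0.0454, adjusted p = 0.00734), and its log2 difference of -0.13 in HepG2 (95% interval -0.3 to 0.037) did not pass the test (adjusted p = 0.199). The Huh7 call was lost with library totals (adjusted p = 0.147) and in the fit over 12 libraries (0.0605).

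Whether the lines responded differently was tested over the 12 libraries as HepG2 effect minus Huh7 effect (the interaction). Of the 10 genes, 6 were called, where 21.5% of 15668 genes were, with 4 above 0 (9.88% of all genes) and 2 below 0 (11.7%). FTL differed most (log2 0.95, SE 0.1, adjusted p = 5.92e-05), followed by SLC39A14 (-0.45, adjusted p = 0.00419), NCOA4 (0.43, adjusted p = 0.00724) and SLC11A2 (0.41, adjusted p = 0.0059). These 4 differences were called under each of the 18 alternatives. ACO1 (0.29, adjusted p = 0.0334) and IREB2 (-0.27, adjusted p = 0.036) were nearer the threshold. The ACO1 difference was lost without HepG2 Ctrl-siRNA replicate 1, HepG2 UBL5-siRNA replicate 1, any Huh7 Ctrl-siRNA library, or Huh7 UBL5-siRNA replicates 2 or 3 (adjusted p 0.0556 to 0.0931). The IREB2 difference was lost without any Huh7 library, HepG2 Ctrl-siRNA replicate 3, or HepG2 UBL5-siRNA replicates 1 or 2 (0.0528 to 0.106). For STEAP3 the difference was -0.097 (95% interval -0.55 to 0.36, adjusted p = 0.798), for FTH1 0.4 (-0.8 to 1.6, adjusted p = 0.663), for SLC40A1 0.35 (0.056 to 0.65, adjusted p = 0.087) and for TFRC 0.24 (0.023 to 0.46, adjusted p = 0.112). The TFRC difference passed without HepG2 Ctrl-siRNA replicate 3 (0.3, adjusted p = 0.0482), and that of SLC40A1 without HepG2 UBL5-siRNA replicate 1 (0.44, adjusted p = 0.0318).

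The lines also differed in how much of each transcript they held under Ctrl-siRNA, although line and library preparation cannot be told apart here. Of the 10 genes, 9 differed, where 63.7% of all genes did (31.7% higher and 32.0% lower in HepG2). Higher in HepG2 than in Huh7 were NCOA4 (1.99-fold, adjusted p = 2.5e-08), SLC39A14 (1.48-fold, adjusted p = 4.33e-06), FTL (1.35-fold, adjusted p = 0.000114) and SLC11A2 (1.15-fold, adjusted p = 0.0135). Lower in HepG2 were TFRC (log2 -0.56, adjusted p = 1.11e-05), SLC40A1 (-0.5, adjusted p = 0.000491), ACO1 (-0.34, adjusted p = 0.00028), IREB2 (-0.3, adjusted p = 0.000475) and FTH1 (-1.08, adjusted p = 0.0298). The FTH1 call was lost without Huh7 Ctrl-siRNA replicate 3 (-0.4, adjusted p = 0.315), HepG2 Ctrl-siRNA replicate 1 (-0.94, adjusted p = 0.09) or HepG2 Ctrl-siRNA replicate 2 (-1.07, adjusted p = 0.0688). STEAP3 did not pass (log2 0.088, 95% interval -0.25 to 0.43). Scaling by library totals moved the median over all genes by more than 0.1, to -0.143 from -0.0237, and the SLC11A2 call was then lost (adjusted p = 0.279).

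Per kilobase of the canonical transcript, on a scale set over the 12 libraries, FTL was the highest of the 10 in every group and STEAP3 the lowest. FTL reached 6622 ± 559 CPM per kilobase with UBL5 siRNA in HepG2 and 5049 ± 386 with Ctrl-siRNA, and 2548 ± 66.6 and 3753 ± 123 in Huh7 (SD, n = 3 each). STEAP3 had 11.7 ± 2.0 and 2.56 ± 0.531 in HepG2, and 11.8 ± 0.889 and 2.4 ± 0.0721 in Huh7. Between them, in HepG2 with UBL5 siRNA, came NCOA4 (262 ± 27.7), TFRC (230 ± 22.0), SLC39A14 (212 ± 5.75), FTH1 (146 ± 34.1), SLC11A2 (34.5 ± 2.21), IREB2 (24.6 ± 0.693), SLC40A1 (19.6 ± 3.4) and ACO1 (17.9 ± 0.605). In that order NCOA4 and TFRC, TFRC and SLC39A14, and SLC40A1 and ACO1 overlapped. In HepG2 with Ctrl-siRNA, SLC39A14 (244 ± 23.3), NCOA4 (179 ± 5.92) and TFRC (148 ± 10.0) followed FTL in that order, and TFRC and FTH1 (126 ± 21.9) and also SLC11A2 (28.7 ± 0.617) and IREB2 (26.9 ± 1.2) overlapped. In Huh7 with UBL5 siRNA, TFRC (287 ± 3.3) stood second, overlapping FTH1 (234 ± 114), which overlapped SLC39A14 (196 ± 4.62), and NCOA4 followed at 97.8 ± 2.33. In Huh7 with Ctrl-siRNA, FTH1 (266 ± 175) overlapped TFRC (218 ± 8.01), and SLC40A1 (25.4 ± 0.827) overlapped SLC11A2 (24.9 ± 0.317). The levels of FTH1 and FTL, and the place of FTH1, are uncertain in every group. Both have pseudogenes, and the treatment of multi-mapping reads is not given in the sources used here.

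Other genes of iron and heme biology were read from 7 lists with 71 genes. Of these, 25 of 62 tested were called in HepG2 (40.3%, with 7 higher and 18 lower) and 47 of 63 in Huh7 (74.6%, with 19 higher and 28 lower), shares near those of all genes, with medians of -0.095 and -0.1. Of 18 genes of heme synthesis, transport and breakdown, 3 were higher and 11 lower in HepG2, where 16.5% of all genes were higher and 20.1% lower, and 6 were higher and 11 lower in Huh7, where 34.9% and 36.4% were. HMOX1, the inducible heme oxygenase that frees iron from heme, had 87.0 ± 11.7 CPM with UBL5 siRNA in HepG2 and 34.6 ± 7.11 CPM with Ctrl-siRNA (SD, n = 3 each), and rose in HepG2 (log2 1.33, adjusted p = 0.000502) and Huh7 (1.49, adjusted p = 3.04e-09). ALAS1, the rate-limiting enzyme of heme synthesis in liver, rose in both lines (0.9, adjusted p = 0.000467, and 0.93, adjusted p = 1.76e-08). PPOX, a later enzyme of that pathway, fell by 1.33 (adjusted p = 0.00335) and by 1.72 (adjusted p = 8.16e-09) on the log2 scale, and it shares 26.2% of its exon bases with other genes. BLVRB, biliverdin reductase B, fell in Huh7 (-2.31, adjusted p = 1.77e-09) and in HepG2 (-0.82, adjusted p = 0.00231), and these effects differed (interaction 1.52, adjusted p = 3.14e-05).

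Among the other uptake and reduction genes, 0 of 6 tested were higher and 1 lower in HepG2, and 1 of 7 was higher and 4 lower in Huh7. The share called was 16.7% in HepG2, against 36.7% of all genes, and 71.4% in Huh7, against 71.3%. At an unadjusted p under 0.05, and also with DESeq2, 1 was higher in HepG2 (CYBRD1, a plasma membrane ferrireductase named for this count). STEAP2, a metalloreductase related to STEAP3, fell in HepG2 (log2 -1.55, adjusted p = 0.000254) and Huh7 (-0.57, adjusted p = 0.00153), opposite to STEAP3. HFE, which binds transferrin receptor 1, fell in Huh7 (-1.45, adjusted p = 1.73e-06), with -0.5 in HepG2 (adjusted p = 0.0834, and 0.0195 without Ctrl-siRNA replicate 3 and 0.0363 in the fit over 12 libraries). STEAP1 fell in Huh7 (-0.44, adjusted p = 0.00127), with 0.021 in HepG2 (adjusted p = 0.903), and the lines differed (interaction 0.49, adjusted p = 0.0289). SLC39A8, a transporter related to SLC39A14, fell in Huh7 (-1.02, adjusted p = 5.07e-07). It was not tested in HepG2 (0.334 ± 0.193 CPM with UBL5 siRNA and 0.306 ± 0.244 CPM with Ctrl-siRNA, SD, n = 3 each). CP, the ferroxidase ceruloplasmin, fell in Huh7 (-1.13, adjusted p = 1.1e-07), with 0.1 in HepG2 (adjusted p = 0.417), and the lines differed (interaction 1.26, adjusted p = 3.06e-05). CP shares 20.1% of its exon bases with HPS3.

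Of the cytosolic iron chaperones and regulators of the IRPs, 3 of 11 were lower and 0 higher in HepG2 (0 also at an unadjusted p under 0.05 and with DESeq2), and 3 were lower and 5 higher in Huh7. The share called was 27.3% in HepG2 and 72.7% in Huh7, near 36.7% and 71.3% of all genes. CIAO2B and MMS19, which deliver iron-sulfur clusters to cytosolic and nuclear proteins, fell in HepG2 (-0.79, adjusted p = 0.00242, and -0.67, adjusted p = 0.000822) and in Huh7 (-1.08, adjusted p = 1e-07, and -0.56, adjusted p = 3.29e-07). HERC2, a ubiquitin ligase of NCOA4, fell in both (-0.49, adjusted p = 0.00523, and -0.6, adjusted p = 1.78e-06). CUL1, a scaffold of the ligase that degrades IRP2, rose in Huh7 (0.33, adjusted p = 5.37e-05), with -0.063 in HepG2 (adjusted p = 0.582). The lines differed for CUL1 (interaction -0.37, adjusted p = 0.00755), which shares 11.1% of its exon bases with another gene. Of 16 genes of mitochondrial iron and iron-sulfur clusters, 2 were higher and 1 lower in HepG2, and 5 higher and 3 lower in Huh7, which is 18.8% and 50.0% called, below the shares of all genes. ISCU, the scaffold on which clusters are built, rose in HepG2 (0.93, adjusted p = 0.000371) and Huh7 (0.24, adjusted p = 0.00285), as did SLC25A37, the mitochondrial iron importer (0.86, adjusted p = 0.00827, and 0.41, adjusted p = 0.0003), whose Huh7 call was lost in the fit over 12 libraries (0.38, adjusted p = 0.0513). NFU1, which carries clusters onward, fell in both (-0.87, adjusted p = 0.000481, and -0.81, adjusted p = 7.8e-07), and IBA57 fell in Huh7 (-1.05, adjusted p = 3.67e-05), with 0.065 in HepG2 (adjusted p = 0.879).

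Of 6 partners of NCOA4 in ferritin turnover, 1 was higher and 1 lower in HepG2, and 1 higher and 4 lower in Huh7, which is 33.3% and 83.3% called, against 36.7% and 71.3% of all genes. PIK3C3, a lipid kinase of autophagy, rose in HepG2 (0.81, adjusted p = 0.000553) and Huh7 (0.27, adjusted p = 0.00188). TAX1BP1, an adaptor in NCOA4-dependent ferritin turnover, fell in Huh7 (-0.67, adjusted p = 1.43e-07) and in HepG2 (-0.37, adjusted p = 0.0446), where the call was lost without Ctrl-siRNA replicates 2 or 3 or UBL5-siRNA replicates 1 or 2 (0.089 to 0.208), with size factors of DESeq2 (0.0665) and with no filter (0.0573). ATG7 and ATG5, of autophagosome formation, fell in Huh7 (-0.63, adjusted p = 1.19e-05, and -0.22, adjusted p = 0.00284). ATG7 shares 18.1% of its exon bases with VGLL4. In HepG2 ATG7 had -0.36 (adjusted p = 0.0522, and 0.0091 to 0.0393 in the fit over 12 libraries, with library totals, or without Ctrl-siRNA replicate 3 or UBL5-siRNA replicate 1) and ATG5 -0.073 (adjusted p = 0.677).

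**Figure D5:**
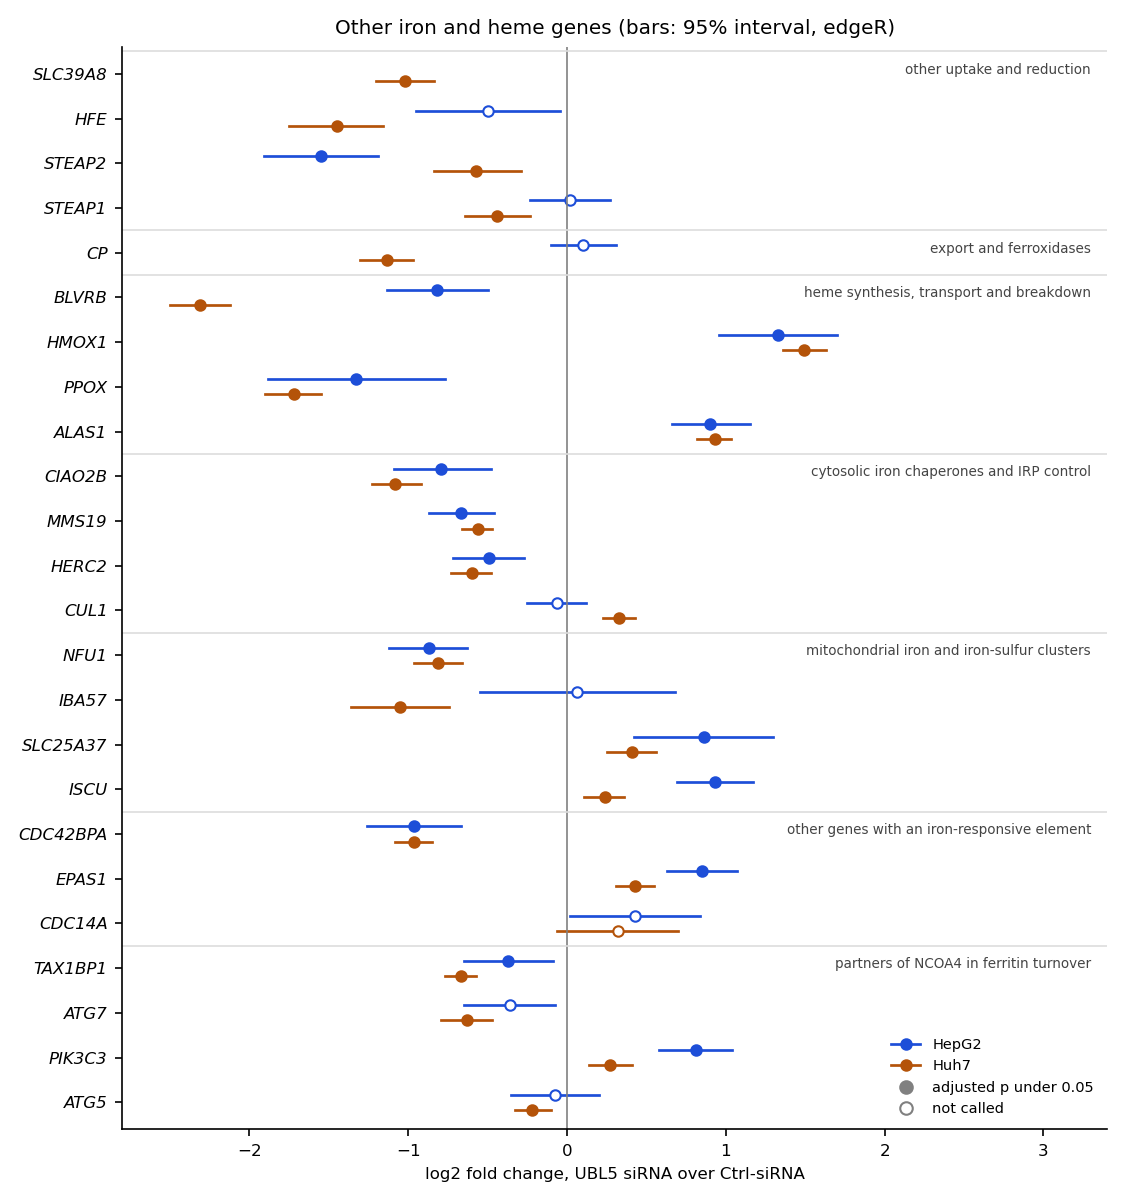
Log2 fold change, UBL5 siRNA over Ctrl-siRNA, of 24 genes of 7 iron and heme lists in HepG2 (blue, upper mark) and Huh7 (orange, lower mark), with 95% intervals from edgeR; filled marks have an adjusted p under 0.05. HMOX1 and ALAS1 lie above 0 and BLVRB, PPOX, CIAO2B, MMS19, NFU1 and CDC42BPA below 0 in both lines; SLC39A8 has no HepG2 mark.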

How the data were processed

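Polyadenylated RNA of 12 libraries (UBL5 siRNA or Ctrl-siRNA, 3 of each in HepG2 and in Huh7) was sequenced after preparation with a strand-specific kit. The authors used bcl2fastq, FastQC 0.11.9 and STAR 2.7.6a with GRCh38, and deposited raw counts per gene from featureCounts. The annotation, strand setting and treatment of multi-mapping reads are not given in the sources used here. The deposited tables also hold the authors' own DESeq2 1.30.0 comparison (means, fold changes, p-values), which was not used. All 12 count columns were matched to samples, with 0 unmatched.

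Counts were analysed with R 4.3.3, edgeR 4.0.16 and DESeq2 1.42.0, and with Python 3.11.15. Low genes were removed with filterByExpr (minimum count 10, minimum total 15), and TMM scaling preceded the quasi-likelihood F test of edgeR, 3 libraries against 3 within each line, with Benjamini-Hochberg adjustment over all genes tested and a threshold of 0.05. Differences between the lines came from a fit over all 12 libraries. SE is the absolute log2 fold change divided by the square root of F. Symbols, exons and UTRs are from GENCODE 44, with coordinates counted from 1. The steps were run on simulated counts with 200 changed genes. Far fewer genes changed there than were called in these data, so scaling under such wide change was not tested. Depth was 19.47 to 29.74 M counts per library.

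The members and lists were chosen with earlier results of these data known. All 10 members were named, and from each list the 4 genes of lowest adjusted p in any line, except that some genes of the lists are not reported here. Alternatives were size factors of DESeq2 in edgeR, library totals, no filter, DESeq2, a replicate block, each library left out, and effects from the fit over 12 libraries. Adding pseudogene counts to FTL and FTH1 was chosen after seeing the data.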

Additional observations from a re-analysis of the deposited data

Results flagged for a closer look

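For 6 of the 10 iron genes the effect of UBL5 siRNA differed between the lines in the interaction test of edgeR over 12 libraries, where 21.5% of all genes did, given as HepG2 effect minus Huh7 effect on the log2 scale. The difference was 0.95 for FTL (SE 0.1, adjusted p = 5.92e-05), -0.45 for SLC39A14 (SE 0.0931, adjusted p = 0.00419), 0.41 for SLC11A2 (SE 0.0915, adjusted p = 0.0059), 0.43 for NCOA4 (SE 0.0986, adjusted p = 0.00724), 0.29 for ACO1 (SE 0.0892, adjusted p = 0.0334) and -0.27 for IREB2 (SE 0.0835, adjusted p = 0.036). NCOA4 and ACO1 were higher with UBL5 siRNA in both lines. For FTL, SLC11A2, SLC39A14 and IREB2 the 2 groups did not overlap in either line and lay in opposite orders. In either direction, groups did not overlap for 50.0% of all listed genes in HepG2 and 71.9% in Huh7. The share apart in opposite orders was not counted. In HepG2 the effects of SLC39A14 (adjusted p = 0.0701) and IREB2 (0.199) were not called. The SLC11A2 effect was called under 8 of 13 alternatives in HepG2 and 4 of 13 in Huh7. The interaction call of ACO1 was lost under 7 and that of IREB2 under 9 of 18 alternatives, each with 1 library left out. Cell line and library preparation cannot be told apart.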

How the results depend on the processing

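Of 122 counts recomputed under an alternative, 120 stayed within 1.5 times. The members called in Huh7 fell to 5, against 9, with effects from the fit over 12 libraries. Of all genes, that fit called 8530 of 15668 in Huh7, against 12098 of 16965 in the fit within the line. Leaving out 1 library gave 5 to 6 members called in HepG2, 8 to 9 in Huh7, 4 to 6 for the difference between the lines and 8 to 9 for the Ctrl-siRNA level. Of all genes, it left from 3819 of 16123 (without UBL5-siRNA replicate 2) to 7270 of 16157 (without Ctrl-siRNA replicate 3) called in HepG2. In Huh7 it left from 11445 of 17283 to 12039 of 17404 called. For the difference between the lines the range was from 2465 of 15758 to 4299 of 15716. For the Ctrl-siRNA level it was from 9089 of 15749 to 10635 of 15716. Both of these highest counts came without HepG2 Ctrl-siRNA replicate 3, which had 1773 listed genes at 0. Of 610 member values under alternatives, 39 lost a call, 7 gained one and 8 turned.

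The values of named genes that turned were not called in the fit reported or where they turned. With 1 library left out, FTH1 ran from -0.62 to 0.51 in Huh7 and its difference between the lines from -0.26 to 0.86, SLC40A1 from -0.005 to 0.2 in HepG2, the STEAP3 difference from -0.26 to 0.031 and its Ctrl-siRNA level from -0.035 to 0.25. In HepG2, STEAP1 ran from -0.028 to 0.078, IBA57 from -0.2 to 0.32 and ATG5 from -0.15 to 0.024. Library totals gave -0.03 for the STEAP3 level and -0.029 for STEAP1. The cause was not tested.

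The replicate numbers were not read as pairs in either line. In the names of the count columns, same-numbered libraries of a line carry neighbouring S numbers, apart from the HepG2 libraries numbered 3, which carry none. What the S numbers stand for is not given in the sources used here. Over all kept genes, residuals of same-numbered libraries correlated at 0.124, 0.11 and 0.0729 in HepG2 and at 0.161, 0.0155 and 0.212 in Huh7, so 1 pair in each line was under 0.1. In HepG2, but not in Huh7, every library correlated best with its own number, a hint from the data. Over genes of at least 10 CPM on average, a set tried after that result and the block counts were seen, they were 0.408, 0.319 and 0.336 in HepG2 and 0.437, 0.0625 and 0.567 in Huh7. The replicate block gave 7 members called in HepG2, 9 in Huh7 and 7 for the difference between the lines, with 6431, 12672 and 4338 of all genes. It added calls for SLC39A14 (-0.2, adjusted p = 0.0319) and ATG7 (0.0341) in HepG2 and for the TFRC difference (0.0195), and changed no other call of a named gene.

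Replicate libraries varied more in HepG2, with a biological coefficient of variation of 0.189, than in Huh7, with 0.0663 (3 libraries a group). The part of HepG2 Ctrl-siRNA replicate 3 in this was not tested.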

Other observations

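The enzymes of heme synthesis, which build protoporphyrin and lastly insert iron into it, did not move as 1 group. The enzymes named here were singled out after their values were seen. The first enzyme, ALAS1, and the last, FECH, were higher with UBL5 siRNA in both lines, and FECH had a log2 fold change of 0.62 in HepG2 (SE 0.199, edgeR adjusted p = 0.0373) and 0.32 in Huh7 (SE 0.0616, adjusted p = 0.000665). Of enzymes between them, ALAD was at -0.93 in HepG2 (adjusted p = 0.00031) and -1.02 in Huh7 (adjusted p = 6.82e-08). UROD, which removes carboxyl groups from uroporphyrinogen, was at -1.38 (adjusted p = 0.000185) and -0.93 (adjusted p = 1.08e-07). UROS, CPOX and PPOX were also lower in both lines, with log2 fold changes from -1.33 to -0.62 in HepG2 and from -1.72 to -0.32 in Huh7.

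Other genes known for an iron-responsive element moved in both directions. EPAS1, which encodes a hypoxia-inducible factor, had 517 ± 23.4 CPM with UBL5 siRNA in HepG2 and 287 ± 32.6 CPM with Ctrl-siRNA, and 445 ± 17.8 and 330 ± 21.7 CPM in Huh7 (SD, n = 3 each), and rose in both (log2 0.85, adjusted p = 0.00034, and 0.43, adjusted p = 2.43e-05). CDC42BPA, a kinase with an element in its 3′ UTR, fell in both lines (-0.96, adjusted p = 0.000775, and -0.96, adjusted p = 2.54e-08). CDC14A was called in neither line. A fully paired match to the pattern was found in the 3′ UTR of CDC14A, and none in the UTRs of EPAS1 or CDC42BPA.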
